A study of Mus musculus with 6 samples.

Results

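Defensins and a small group of other secreted antimicrobial proteins were examined in mouse penile squamous tumors and normal penile epithelium. The 70 genes were chosen by symbol: 18 whose symbol starts with Defa, 43 whose symbol starts with Defb, and Lyz1, Slpi, Wfdc12, Pglyrp1, Pglyrp3, Pglyrp4, Reg3g, Reg3b and Ang4. They are 70 of the 24063 gene symbols in the count files. Where a symbol had several transcript rows, the row with the highest mean count over all 6 libraries was taken, which touched Pglyrp4 alone. These mean counts do not use the difference between the groups. The single genes were listed with earlier results of these data known, so their number that moved is a description.

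RNA was sequenced from 3 tumors of SA mice (PB-Cre+ Smad4L/L ApcL/L) and from the penile epithelium of 3 wild type (WT) C57BL/6 mice, all 5 months old. Cre is driven in SA mice by PB-Cre4, a transgene under the androgen-responsive probasin promoter, and deletes both genes in penile epithelial cells that express it. The strain background of the SA mice is not given in the sources used here, so a strain difference cannot be told apart from the genotype. The tumors arose without carcinogen, and the comparison asks which antimicrobial genes differ between malignant and normal penile epithelium.

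The gene rows held between 23828283 and 110509147 counts per library, and the library of SA tumor 3 held 4.42 times the median count of the other 5. A level of 3 counts, used as the floor, lay between 0.0244 and 0.137 CPM (counts scaled to a library of 1000000), for counting error only. Whole-gene Smad4 averaged 39.6 ± 5.61 CPM (SD, n = 3) in SA tumors and 67.8 ± 5.92 CPM in WT penises, and Apc was 215 ± 33.4 and 79.6 ± 15.1 CPM. Whole-gene counts do not single out the deleted part of either gene. Keratinocyte markers were present in all 6 libraries, at a summed 31794 to 37215 CPM in SA tumors, compared with 71619 to 80870 CPM in WT penises. All 5 smooth muscle markers fell (Cnn1, Myh11 and Actg2 from 102 ± 19.8, 660 ± 116 and 82.5 ± 17.3 CPM to 2.59 ± 1.94, 20.4 ± 16.8 and 2.48 ± 1.74 CPM), from a summed 1338 to 1800 CPM in WT penises to 25.7 to 102 CPM in SA tumors. In tissue RNA, fewer cells of a type and less RNA per cell cannot be told apart.

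Defensins are small cysteine-rich peptides that damage microbial membranes. In the mouse, alpha-defensins (cryptdins) are made mainly by Paneth cells at the base of the small intestinal crypt, where the protease Mmp7 cuts them to their active form, and mouse neutrophils are known to lack them. Beta-defensins are made by many epithelia, among them skin, oral and genital epithelium, and a large set of them belongs to the epididymis.

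Alpha-defensin genes lie in a cluster of near-identical copies on chromosome 8, and the first question was which gene a read can be given to. The coding sequences of the 2 most abundant alpha-defensins of the SA tumors are shown because they differ at only 2 of 279 positions (99.3% identical, GENCODE M21 coding exons). Capitals mark those positions.
Defa21: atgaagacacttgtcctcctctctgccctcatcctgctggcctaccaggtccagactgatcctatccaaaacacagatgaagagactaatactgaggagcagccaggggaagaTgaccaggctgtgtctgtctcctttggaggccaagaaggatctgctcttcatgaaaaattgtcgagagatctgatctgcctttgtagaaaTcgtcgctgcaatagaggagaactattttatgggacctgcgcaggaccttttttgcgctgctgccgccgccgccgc
Defa22: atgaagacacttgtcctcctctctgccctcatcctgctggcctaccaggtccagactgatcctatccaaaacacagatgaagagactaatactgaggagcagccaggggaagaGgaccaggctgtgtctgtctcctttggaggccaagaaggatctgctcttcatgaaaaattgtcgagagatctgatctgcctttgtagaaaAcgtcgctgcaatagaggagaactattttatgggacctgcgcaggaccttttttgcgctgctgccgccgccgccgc

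Reads were 76 bases long. Of all 76-base stretches of the Defa21 transcript, 44.3% occur in no other gene, and the rest are shared with Defa22. The share was 44.5% for Defa22, 2.99% for Defa5, and 0% for Defa2 and Defa20. Over 28 coding alpha-defensin genes, the 378 pairs had a median identity of 83.3%, and 77 pairs were over 90% identical. Counts of single alpha-defensin genes are therefore uncertain, and how reads that fit several genes were treated is not given in the sources used here. The 5 beta-defensins described below share no 76-base stretch with another gene.

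Of the 70 genes, 48 had at least 1 count in some library, 34 had at least 3 counts in 1 library, and 22 were at 0 in all 6, for example Defa-ps13, Defa-rs7, Defa17 and Defa23. Counts were seen in SA tumors alone for 21 genes and in WT penises alone for 4, a split that depends on depth. Some of the 21 had few counts, in the deep library of SA tumor 3 alone, for example Defb12 (1), Defb39 (2) and Defb21 (4). No such split was made over all genes, so that it is a description only. By the filter on low counts 16 genes were tested. Of these, 4 (Defa21, Defa22, Defa5 and Reg3g) entered the test only through their level in SA tumors, so that these had to differ. Past an adjusted p of 0.01 and a log2 fold change of 2 in size (edgeR's quasi-likelihood test, adjusted over 16336 genes), 6 of the 16 rose in SA tumors and 1 fell. The 6 were those 4 genes, of which Defa21 and Defa22 share much of their sequence, with Defb14 and Pglyrp1. Over all genes tested, 9.41% rose and 3.59% fell by the same rule. Every SA library was above every WT library for 11 of the 16 and below for 4, beside 32.7% and 30.7% of all genes tested. The 16 genes had a median log2 fold change of 1.59, beside 0.03 over all genes in the fit.

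**Figure D1:**
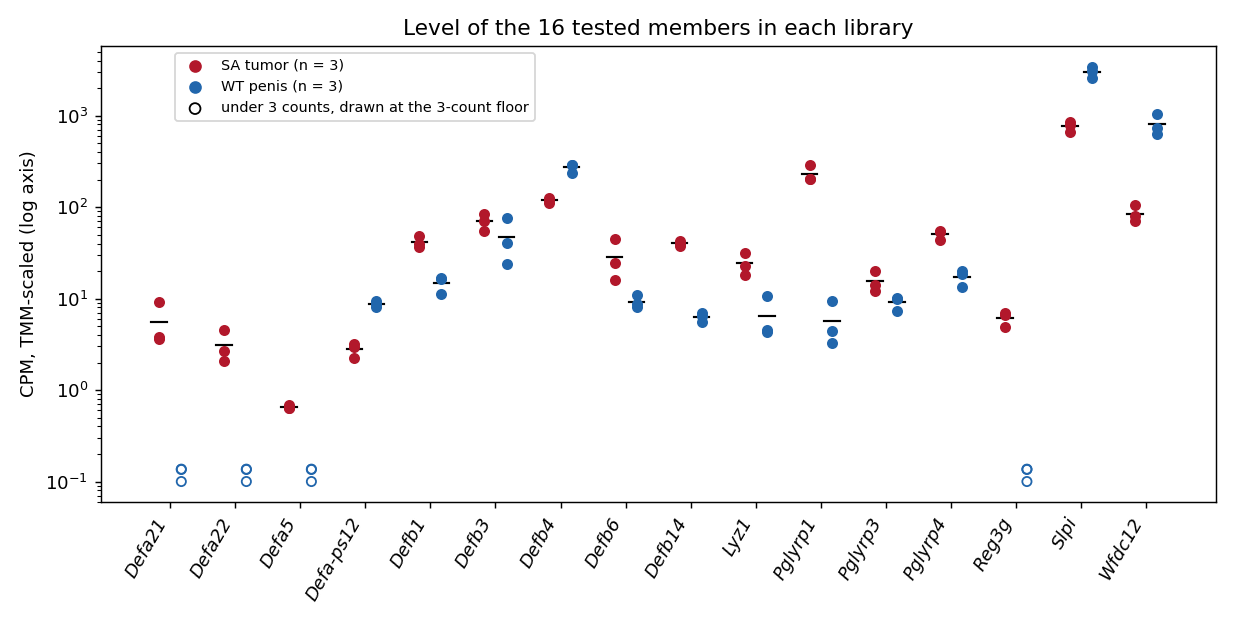
CPM (log axis) of the 16 tested genes in each of 3 SA tumor and 3 WT penis libraries. Filled points are libraries with at least 3 counts, open points lie at the 3-count floor, and bars are group means above 0.1 CPM. Defa21, Defa22, Defa5 and Reg3g are open in every WT library, and Slpi and Wfdc12 are lower in all SA tumors.

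Alpha-defensin transcripts were found in SA tumors and were nearly absent from WT penises. Defa21 had 245, 110 and 468 counts in SA tumors 1, 2 and 3 and 1, 1 and 0 counts in WT penises 1, 2 and 3. Defa22 had 122, 80 and 259 counts in the SA tumors and none in the WT penises. Defa5 had 17, 21 and 78 counts in the SA tumors and none in the WT penises. No SA library overlapped a WT library for these 3 genes.

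With depth scaled, Defa21 stood at 9.10, 3.64 and 3.80 CPM in the SA tumors, with SA tumor 1 the highest. Its log2 fold change was 7.51 (SE 0.72), a fitted value that depends on the prior count because the WT libraries held at most 1 count. Defa22 was at 3.10 ± 1.28 CPM (SD, n = 3), at least 24.9-fold higher than the WT floor of 3 counts per library. Defa5 was at 0.653 ± 0.0361 CPM, at least 5.26-fold higher than that floor. All 3 stayed past both thresholds when any 1 library was left out. With at most 1 count in any WT library, this was largely fixed in advance and adds no support. As the 3 genes entered the test only through SA tumors, no p is given for them.

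Since reads can move between copies, the family was also summed. The 17 Defa symbols other than Defa-ps12 summed to 421, 230 and 934 counts in SA tumors 1, 2 and 3 and to 1, 1 and 0 counts in WT penises. Defa-ps12, described below, lies among beta-defensin genes and was left out. It went the other way, at 2.80 CPM in SA tumors and 8.79 CPM in WT penises, so a sum with it would differ far less. A further 15 alpha-defensin genes stand in the files under other symbols, matched here by their RefSeq transcripts, and summed to 66, 55 and 198 counts against 0, 1 and 0. Among these, Gm15293 (Defa41 in RefSeq) had 30, 20 and 48 counts and Gm10104 (Defa35) had 11, 11 and 58 counts in the SA tumors, with none in WT penises. Both were named after their values were seen and entered the test only through SA tumors, so that no p is given for them. Scaled for depth, the sum over Defa symbols was 10.3 ± 4.65 CPM in SA tumors, compared with 0.0262 ± 0.0234 CPM in WT penises (exact permutation p = 0.1, two-sided, the smallest that 3 against 3 allows).

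**Figure D2:**
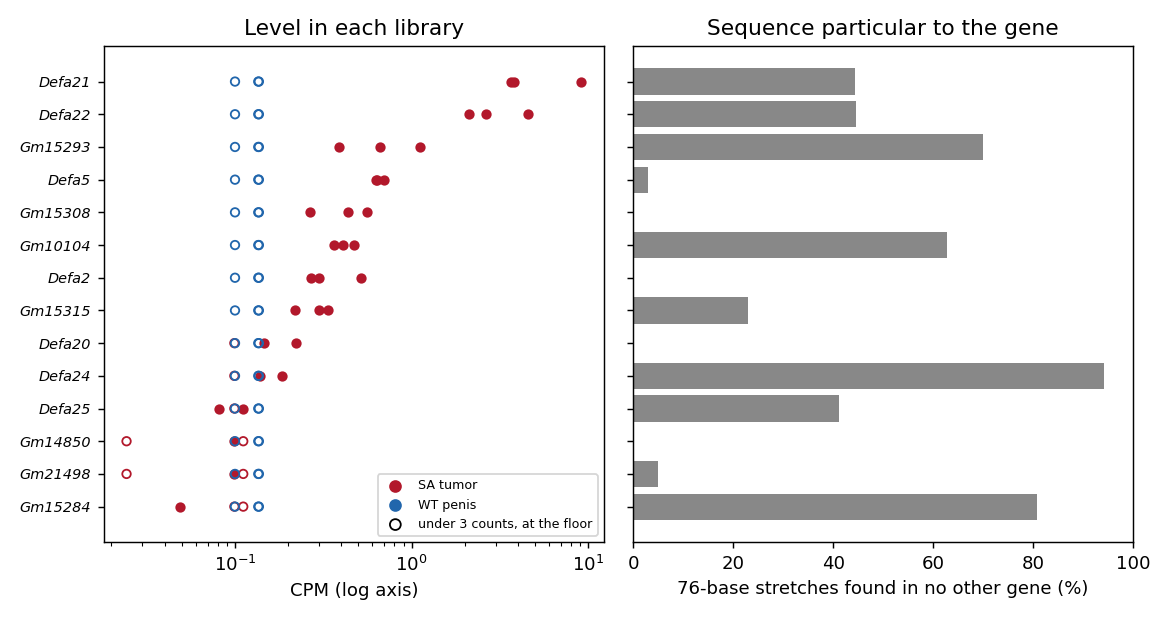
Left, CPM (log axis) of each alpha-defensin gene with at least 3 counts in a library and a GENCODE transcript, with SA tumors in red, WT penises in blue and open points at the 3-count floor. Right, the percent of 76-base stretches of its transcript found in no other gene, which is 44.3 for Defa21 and 0 for Defa2.

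The other alpha-defensins with 3 or more counts did not pass the filter. Defa2 had 14, 9 and 33 counts, Defa4 had 4, 8 and 35, and Defa20 had 6, 2 and 18 counts in the SA tumors, with none in WT penises. Defa24, Defa25 and Defa6 had counts in SA tumors 1 and 3 only, of at most 17. All of these were at 0 in WT penises. Defa4 and Defa6 had no position in the RefSeq annotation used (GRCm38.p6) and no GENCODE transcript. How far their reads are shared with other genes is therefore not known.

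Defa-ps12 went the other way. It had 80, 68 and 392 counts in SA tumors and 195, 283 and 178 in WT penises, or 2.80 ± 0.489 and 8.79 ± 0.669 CPM, with every SA tumor below every WT penis. Its log2 fold change was −1.64 (SE 0.20, edgeR adjusted p = 2.28e-04), short of the fold threshold. Despite its symbol, this pseudogene lies at chr8:19210462-19212760 (GRCm38.p6) among beta-defensin genes, and its transcript was 78.2% identical to the Defb6 and 76.1% identical to the Defb4 coding sequence. Its count was 0.0235 ± 0.00321 of the Defb4 count in SA tumors and 0.0324 ± 0.00182 in WT penises.

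The sequence before the start site is shown for Defa21 because all 300 promoter bases were identical between Defa21 and Defa22. The 250 bases upstream lie on the plus strand at chr8:21025295-21025544 for Defa21 and chr8:21162027-21162276 for Defa22 (RefSeq, GRCm38.p6). Capitals mark CTTTGAT, a core letter sequence bound by TCF and LEF factors, the partners of beta-catenin, read here on the minus strand as ATCAAAG. For Reg3g, on the minus strand at chr6:78468875-78469124, capitals mark the same letters on the gene's own strand.
Defa21: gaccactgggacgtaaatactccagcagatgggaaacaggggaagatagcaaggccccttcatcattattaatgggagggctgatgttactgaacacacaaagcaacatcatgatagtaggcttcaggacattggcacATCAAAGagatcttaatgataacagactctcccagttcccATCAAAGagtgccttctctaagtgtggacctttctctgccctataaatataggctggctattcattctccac
Reg3g: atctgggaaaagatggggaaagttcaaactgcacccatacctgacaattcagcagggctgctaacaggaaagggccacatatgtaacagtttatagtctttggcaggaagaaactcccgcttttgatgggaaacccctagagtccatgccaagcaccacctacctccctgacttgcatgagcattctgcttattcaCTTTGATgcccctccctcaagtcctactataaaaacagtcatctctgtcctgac

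The Defa21 matches begin 112 and 72 bases before the start site, and the Reg3g match 54 bases before it. Of the 16 tested genes 9 had a promoter entry, and CTTTGAT was found on either strand in 3 of these, Defa21, Defa22 and Reg3g. Defa21 and Defa22 hold the same 300 bases and are not independent matches. CTTTGAT was present in 3.73% of 32851 promoters of the same 300-base length, and an enrichment was not tested. A NF-kappaB motif stood in the promoters of Reg3g, Pglyrp1 and Defb6, and in 8.46% of all promoters. CTTTGAA (5.14% of all promoters), TTTATGA, a CDX motif (3.71%), and TGACTCA, an AP-1 motif (5.20%), were found in none of the 9. A match is a run of letters and not a measured site.

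Reg3g and Reg3b are secreted lectins that bind bacterial cell walls at mucosal surfaces. Reg3g had 185, 146 and 808 counts in SA tumors and 2, 1 and 1 in WT penises, without overlap. Its level was 6.09 ± 1.10 CPM in SA tumors, compared with 0.0565 ± 0.0300 CPM in WT penises, and its log2 fold change was 6.74 (SE 0.40). Reg3g too entered the test only through SA tumors, so that no p is given for it. Reg3b was not tested, with 1, 1 and 5 counts in the SA tumors and none in WT penises. Ang4, a Paneth cell ribonuclease, was not tested either, with 4, 4 and 17 counts in the SA tumors and none in WT penises.

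The transcripts of Paneth cells were therefore examined beside the alpha-defensins. Of 9 Paneth cell markers, which include Lyz1 and Ang4, 4 were tested and 3 rose past both thresholds. These 3 (Itln1, Pnliprp2 and Mmp7) passed the filter only through their level in SA tumors, so that no p is given for them. Itln1, an intestinal lectin, was at 3.28 ± 0.911 CPM in SA tumors, compared with 0 in WT penises. Pnliprp2, a lipase, was at 10.3 ± 8.25 and 0.0301 ± 0.0522 CPM. Mmp7 had a log2 fold change of 5.69 (SE 0.37), with 10, 7 and 3 counts in WT penises 1, 2 and 3. Mptx1 and Mptx2, also on the list, were at 0 in all 6 libraries. The summed level of the list was 49.3 to 55.5 CPM in SA tumors, compared with 4.57 to 11.3 CPM in WT penises. Lyz1, itself a gene of the group examined here, gave 22.9, 31.7 and 18.0 CPM of this sum in SA tumors 1, 2 and 3. In WT penises 1, 2 and 3 Lyz1 gave 10.6, 4.31 and 4.56 CPM, nearly all of the sum. The sum is therefore not a reading separate from the group. Whether Paneth cells carry the alpha-defensin reads was not tested.

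Lyz1, the Paneth cell lysozyme that cuts bacterial peptidoglycan, had 616, 959 and 2220 counts in SA tumors and 234, 129 and 100 in WT penises. It was at 24.2 ± 6.95 CPM in SA tumors, compared with 6.48 ± 3.55 CPM in WT penises, and every SA tumor was above every WT penis. The log2 fold change of 1.91 (SE 0.38, edgeR adjusted p = 4.50e-03) fell short of the fold threshold. It passed both thresholds without SA tumor 3 (2.09) and without WT penis 1 (2.44), and its adjusted p by edgeR was 0.0150, 0.0196 and 0.0261 without SA tumor 2, WT penis 2 and WT penis 3. The macrophage lysozyme Lyz2, with which it shares part of its transcript, was at 145 ± 70.5 and 114 ± 31.5 CPM (edgeR adjusted p = 0.526). The count of Lyz1 was 0.358, 0.181 and 0.0928 of that of Lyz2 in SA tumors 1, 2 and 3, and 0.0704, 0.0434 and 0.0491 in the WT penises.

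Among the beta-defensins, 5 of 43 genes carried nearly all of the transcripts, and their proportions differed between the groups. Defb4 was the largest in both. The other 38 genes together reached at most 1.00 CPM in any library. Levels between genes are compared per length, in the TPM (a unit scaled for transcript length) deposited with the counts.

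Defb14, the mouse counterpart of a human epithelial defensin, had 1076, 1143 and 5284 counts in SA tumors and 141, 209 and 121 in WT penises. Its level rose from 6.29 ± 0.736 CPM in WT penises to 40.2 ± 2.55 CPM in SA tumors, 6.40-fold, and all SA tumors lay above all WT penises. The log2 fold change was 2.68 (SE 0.13, edgeR adjusted p = 2.78e-06). It was the only beta-defensin past both thresholds.

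Defb4 had 3382, 3373 and 14755 counts in SA tumors and 6378, 8753 and 5203 in WT penises. At 119 ± 7.04 CPM in SA tumors, compared with 273 ± 30.8 CPM in WT penises, it was lower in every SA tumor. Its log2 fold change of −1.19 (SE 0.11, edgeR adjusted p = 5.67e-05) passed the p threshold and not the fold threshold.

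Defb1, made constitutively by many epithelia, had 1074, 1109 and 5908 counts in SA tumors and 359, 501 and 245 in WT penises. Its log2 fold change was 1.50 (SE 0.18, edgeR adjusted p = 2.04e-04), with no overlap between groups. Defb6 had 663, 1352 and 1991 counts against 240, 263 and 176, and varied most among the SA tumors, from 16.2 to 44.8 CPM. Its log2 fold change was 1.62 (SE 0.36, edgeR adjusted p = 7.23e-03), but its adjusted p by edgeR was 0.0117 without SA tumor 1 and 0.0269, 0.0388 and 0.0444 without WT penis 1, 2 and 3. Both were short of the fold threshold.

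Defb3 was the only tested gene of the 16 whose groups overlapped. It had 1909, 1663 and 10319 counts in SA tumors and 1685, 1216 and 529 in WT penises. It stood at 69.9 ± 14.4 CPM in SA tumors, compared with 47.0 ± 26.6 CPM in WT penises, and did not pass the test (log2 fold change 0.58, SE 0.40, edgeR adjusted p = 0.270).

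By TPM, Defb4 made up 35.4 ± 1.60% of the beta-defensin transcripts in SA tumors and 74.4 ± 6.61% in WT penises. Defb14 made up 16.6 ± 0.535% and 2.39 ± 0.288%. Defb1 held 6.16 ± 0.674% and 1.98 ± 0.178%, and Defb6 held 12.2 ± 6.64% and 3.55 ± 0.283%. Defb3 held 29.5 ± 5.17% and 17.3 ± 7.08%. Shares of one total are not independent of each other.

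The beta-defensin total moved little beside these shares, and its direction depended on the scale. It was 1304 ± 83.6 TPM in SA tumors and 1101 ± 144 TPM in WT penises (exact permutation p = 0.1), and 300 ± 12.5 and 351 ± 57.6 CPM (exact permutation p = 0.3, two-sided). With 3 against 3, 0.1 is the smallest p this test allows.

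**Figure D3:**
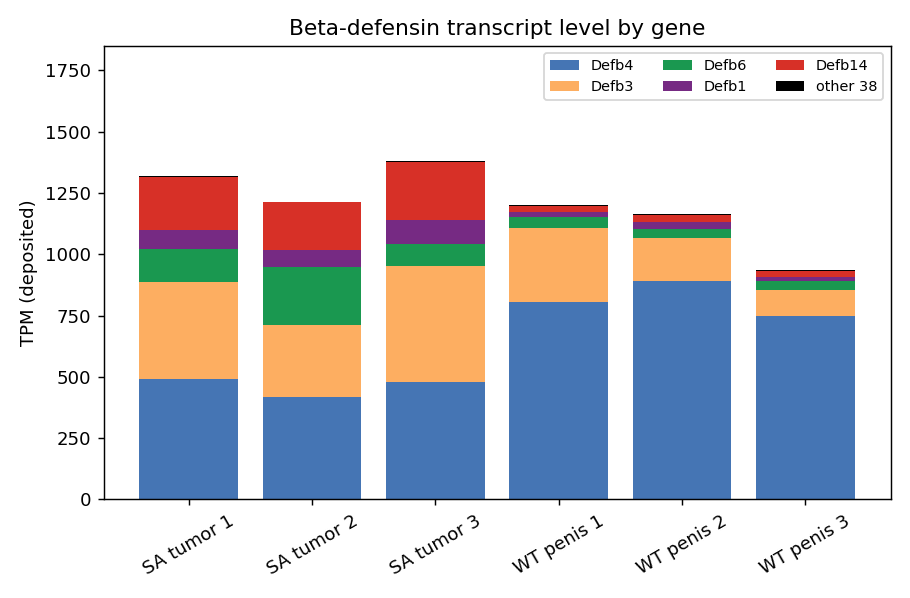
Deposited TPM of the beta-defensins, stacked by gene, in each SA tumor and WT penis library. The bars reach 1214 to 1380 TPM in SA tumors and 936 to 1202 TPM in WT penises. Defb4 takes the largest part of each WT bar, and Defb14 is visibly larger in each SA bar.

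The remaining beta-defensins with 3 or more counts in a library were Defb15, Defb2, Defb21, Defb30, Defb35, Defb36, Defb44-ps, Defb45, Defb46 and Defb5. None was tested. Defb2 had 4, 0 and 15 counts in SA tumors and 9, 11 and 7 in WT penises, and Defb15 had 1, 0 and 9 against 3, 10 and 5. Markers of the epididymis, the main site of many beta-defensins, summed to at most 3.21 CPM in any library.

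The peptidoglycan recognition proteins bind bacterial cell walls. Pglyrp1, which is stored in neutrophil granules, had 5492, 8639 and 24797 counts in SA tumors and 210, 131 and 72 in WT penises. It rose 40.3-fold, from 5.72 ± 3.32 to 230 ± 48.1 CPM (log2 fold change 5.34, SE 0.43, edgeR adjusted p = 8.74e-05). Every SA tumor lay far above every WT penis.

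Most tested neutrophil markers were higher in SA tumors as well. Of 16 such markers with a row, 10 were tested. Ltf did not pass both thresholds and 9 rose past them, 5 of these tested only through SA tumors. Among these 5, Cd177 was at 7.47 ± 4.72 and 0.0151 ± 0.0261 CPM, Retnlg at 2.93 ± 1.92 and 0.0524 ± 0.0469 CPM, and Fpr1 at 1.37 ± 0.920 and 0.0301 ± 0.0522 CPM. S100a9, the most abundant, was at 1049 ± 289 CPM in SA tumors, compared with 36.1 ± 15.7 CPM in WT penises. The list summed to 1775, 1504 and 2561 CPM in SA tumors 1, 2 and 3, compared with 68.8 to 173 CPM in WT penises. S100a9 alone holds a large part of that sum. Pglyrp1 was at 204, 286 and 201 CPM in SA tumors 1, 2 and 3. Elane and Mpo, genes of early granules, had means of 0.00541 and 0.130 CPM in SA tumors. The part of neutrophils in the Pglyrp1 level was not tested.

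Pglyrp3 and Pglyrp4 are made by epithelia such as skin and oral mucosa. Pglyrp4 had 1451, 1312 and 6766 counts in SA tumors and 443, 562 and 292 in WT penises, a log2 fold change of 1.55 (SE 0.17, edgeR adjusted p = 1.40e-04) that was short of the fold threshold. Pglyrp3 had 543, 426 and 1509 counts against 161, 307 and 218, and missed the p threshold (log2 fold change 0.75, SE 0.22, edgeR adjusted p = 0.0204). Both were higher in every SA tumor than in any WT penis.

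Slpi and Wfdc12, the 2 whey acidic protein (WFDC) antiproteases of the group, were lower in SA tumors. Slpi inhibits neutrophil elastase and is also antibacterial. Slpi had 22707, 20162 and 96420 counts in SA tumors and 75844, 91436 and 56700 in WT penises. At 765 ± 89.6 and 3021 ± 424 CPM it was 3.95-fold lower in SA tumors, without overlap.

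Slpi had a log2 fold change of −1.98 (SE 0.15, edgeR adjusted p = 1.85e-05), just short of the fold threshold. It passed both thresholds without SA tumor 1 (−2.06) and without WT penis 3 (−2.11).

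Wfdc12 had 2149, 2110 and 12904 counts in SA tumors and 23119, 22167 and 13832 in WT penises. It fell from 805 ± 215 to 84.8 ± 18.0 CPM, 9.49-fold lower, and was the only tested gene of the group to fall past both thresholds (log2 fold change −3.24, SE 0.23, edgeR adjusted p = 1.47e-05). Of 13 keratinocyte markers with a row, 2 fell and 1 rose past both thresholds. Lor, a cornified envelope protein, had a log2 fold change of −2.28 and Krt15 of −3.61 (edgeR adjusted p = 5.00e-05 and 2.11e-06), while Krt17 rose by 2.59. Krt10, the most abundant marker, was at 6373 ± 1747 and 24984 ± 1923 CPM. The part of the keratinocyte composition in the Slpi and Wfdc12 values was not tested.

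**Figure D4:**
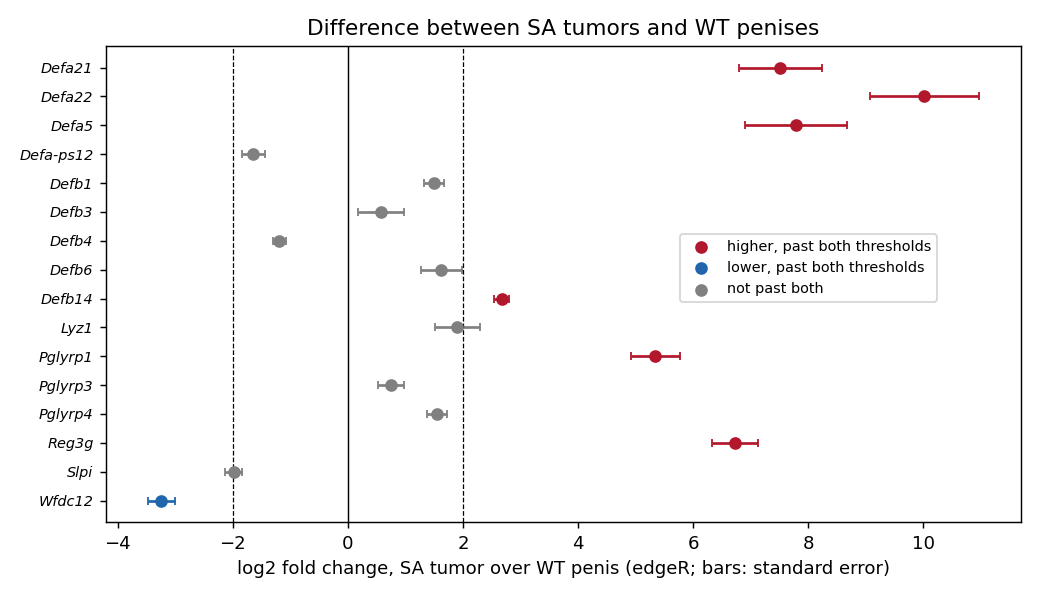
Log2 fold change of SA tumors over WT penises for the 16 tested genes. Bars are approximate standard errors, derived from the log2 fold change and edgeR's F statistic. Dashed lines mark −2 and 2. Values run from −3.24 for Wfdc12 to 10.02 for Defa22, and the 3 alpha-defensin values above 7 depend on the prior count.

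Other antimicrobial genes, 45 in all, were read from a list beside the group. Of the 28 tested, 9 rose, 6 fell and 13 did not pass both thresholds, with a median log2 fold change of 0.40. Of the 9, Wfdc21 and 6 others were tested only through SA tumors. Reg3d and Reg3a, relatives of Reg3g, and Ang2, a relative of Ang4, had the largest fitted fold changes, which depend on the prior count because all WT penises were at 0, and had SA levels of 2.06 ± 0.680, 0.546 ± 0.217 and 1.47 ± 0.481 CPM. Among those that fell, Lypd8 went from 113 ± 48.5 to 0.793 ± 0.615 CPM, Retnla from 29.2 ± 9.43 to 1.40 ± 1.13 CPM and Ang, another relative of Ang4, from 17.5 ± 1.58 to 2.80 ± 0.553 CPM. WFDC genes were divided. Wfdc1, Wfdc15a and Wfdc18 fell and Wfdc21 rose past both thresholds, and these 4, like Lypd8, Retnla and Ang, were named after their values were seen. Wfdc15a had only 10, 17 and 14 counts in WT penises 1, 2 and 3. It entered the test only through that level, so that it had to differ.

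Of 31 tested genes that control antimicrobial expression, such as interleukin-17 and Toll-like receptor genes, 6 rose past both thresholds and none fell, with a median log2 fold change of 0.14. Of the 6, Il17a, Il17f, Il23a, Il1b and Tnf were tested only through SA tumors, so that no p is given for them. Il1b rose by 6.72 and Tnf by 3.37 on the log2 scale, and Il23a was at 4.63 ± 0.864 and 0.132 ± 0.0855 CPM. Stat3, the most abundant, was at 237 ± 9.05 and 215 ± 11.5 CPM (edgeR adjusted p = 0.231). Among 9 genes of defensin processing and reception, 4 were tested and 2 rose. These were Mmp7 and Klk7, a skin protease at 173 ± 67.9 CPM in SA tumors, compared with 29.4 ± 5.81 CPM in WT penises.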

How the data were processed

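Total RNA of 3 SA tumors and 3 WT penises, each from a separate mouse, was sequenced as 76-base paired, stranded reads. Alignment by the authors used TopHat and the mm10 genome, and HTSeq gave the counts, per the labels and the study's methods. The deposited files hold raw counts per RefSeq transcript. The authors also deposited FPKM values, which were not used in a result, and TPM values, used here to compare levels between genes.

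One transcript row per symbol (highest mean count) was analysed with edgeR 4.0.16 (R 4.3.3), by its quasi-likelihood test (robust, TMM), after filterByExpr, at least 10 counts scaled to the median library in 3 samples. SA tumors were compared with WT penises over 16336 genes, with Benjamini-Hochberg adjustment. Each SE is the size of the log2 fold change over the square root of edgeR's F statistic, an approximation. The members, lists and tests were chosen with earlier results of these data known. Every tested member, the untested ones with 3 or more counts, and from each list the 3 largest called changes and the most abundant gene were named. Alternatives were DESeq2 1.42.0, other scalings and filters, glmTreat, a replicate block, other transcript rows and leaving out each library.

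Sequence comparisons used GENCODE M21 transcripts and RefSeq promoters, where 76-base windows were matched between genes on exact letters. Macrophage (0 of 8 past the thresholds), fibroblast (0 of 6, Col3a1 the most abundant) and endothelial markers (0 of 4, Pecam1 the most abundant) were read as well, and 1 of 9 epididymis markers (Lcn12) fell. Lcn12 entered the test only through WT penises, with 36, 36 and 14 counts there. Of 6 prostate markers 1 was tested (Tgm4, log2 fold change 0.11), and Pbsn was at 0 in all libraries.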

Additional observations from a re-analysis of the deposited data

How the results depend on the processing

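Over 16 alternative settings no tested member changed direction. In 255 comparisons of a member's log2 fold change with its reported value, 250 kept their call under the joint rule of p and fold, none lost a call and 5 gained one. The 250 include Defa21, Defa22, Defa5 and Reg3g, which entered the test only through SA tumors and could hardly lose theirs. Taken alone, the adjusted p crossed 0.01 for Defb6 in 5 settings, Lyz1 in 3 and Pglyrp3 in 3, leaving glmTreat aside, whose p is against the fold threshold. Those 5 were Lyz1 with library totals only (2.20) and without SA tumor 3 or WT penis 1, and Slpi without SA tumor 1 or WT penis 3. Leaving out 1 library gave 6 to 7 genes higher and 1 to 2 lower (2 without SA tumor 1 and 2 without WT penis 3), and 16 tested. Defa5 was not tested under a filter at a mean of 50 counts, which gave 5 genes higher. DESeq2 and the fit without a filter gave 8, adding Defa2 and Defa4. Library totals only moved the median log2 fold change of all genes to 0.32 from 0.03. With 33 members detected after scaling to the shallowest library, in place of 48, depth limits the count of detected genes. Same-numbered samples did not deviate together (r = −0.135, −0.105 and 0.0238), and the replicate block gave 6 genes higher and 1 lower. SA tumor 2 and WT penis 1, of unlike number, had r = 0.211. With 3 libraries per group, these values cannot exclude a shared batch.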

Other observations

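Intestinal genes outside the lists were read after the Paneth cell markers, and all 9 were chosen after their values were seen. Of these, 4 rose past both thresholds, each tested only through its level in SA tumors, so that no p is given for them. Cdx1, an intestinal transcription factor, was at 10.8 ± 1.26 CPM (SD, n = 3) in SA tumors and 0.0303 ± 0.0262 CPM in WT penises, and Cdx2 at 1.35 ± 0.518 CPM and 0. Vil1, the brush border protein villin, was at 11.7 ± 3.31 and 0.109 ± 0.0235 CPM, and Pla2g2a, an antibacterial phospholipase of Paneth cells, at 41.7 ± 8.11 and 0.0563 ± 0.0707 CPM. Pla2g2a is known to differ between mouse strains, and strain cannot be told apart from genotype here. Sox9, a transcription factor that Paneth cells need, was lower in every SA tumor, at 36.5 ± 2.69 and 71.3 ± 0.581 CPM (log2 fold change −0.97, edgeR adjusted p = 6.83e-05). The stem cell marker Lgr5 was at 22.3 ± 1.98 and 42.3 ± 4.14 CPM, also lower in every SA tumor (log2 fold change −0.93, edgeR adjusted p = 3.42e-04). The goblet cell mucin Muc2 was at 1.17 ± 0.152 and 1.37 ± 0.363 CPM (edgeR adjusted p = 0.588). Olfm4 and Ihh were not tested, at 0.232 ± 0.138 and 0.0374 ± 0.0341 CPM and at 0.325 ± 0.150 and 0.105 ± 0.0519 CPM.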
